A study of Mus musculus with 8 samples.

Results

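The formins of this report are 10 genes of the family of actin nucleators, namely Diaph1, Diaph2, Diaph3, Daam1, Daam2, Fhod1, Fhod3, Fmnl1, Fmnl2 and Fmnl3. They were taken as the listed members of the family by symbol, and all 10 were found among the 55291 gene symbols of the count table and in the table of transcript abundances. The study asked what the loss of PKN2, a serine/threonine kinase, changes in the embryonic ventricle before its shape diverges. RNA was sequenced from ventricular tissue at E10.5 in 4 libraries from Pkn2 fl/fl; XMLC2-Cre+ embryos (cKO) and 4 from Pkn2 fl/fl; Cre- littermates (control), all on a C57BL/6N background. Both groups carried the floxed Pkn2 alleles, so deletion and the presence of Cre cannot be told apart. XMLC2-Cre acts in cardiomyocytes, whereas the RNA came from every cell of the ventricular tissue.

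Formins build straight, unbranched actin filaments. Their FH2 domain forms a ring around the growing end of the filament and stays with it as it elongates, while the FH1 domain beside it gathers actin bound to profilin. Most members of the family fold on themselves and are opened by upstream signals. In heart muscle they are known for the assembly and upkeep of the thin filaments of the sarcomere, and in other cells for stress fibers, filopodia and the contractile ring of dividing cells.

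Libraries held 47559845 to 56660938 counts, so that counting error was small for all formins but Fmnl1, whose 78 to 227 counts per library carried a counting error of 11.3% to 6.64%. Pkn2 was lower in all 4 cKO libraries (77.6 to 84.3 CPM, reads relative to the TMM-scaled library total) than in any control library (133 to 153 CPM), and its cKO mean was 56.3% of the control mean. In the libraries cKO replicate 1 and cKO replicate 4, the summed level of 15 endothelial and endocardial markers was 2040 and 2080 CPM, against 1670 and 1660 CPM in the other 2 cKO libraries and 1300 to 1520 CPM in controls. Of these 15 markers, 15 were higher in cKO, where 49.8% of all genes tested were higher. At an adjusted p of at most 0.05, 7 of the 15 passed the threshold by edgeR, 13 by DESeq2 and 3 by limma-voom. Over all 26820 genes tested, these methods called 230, 867 and 168. Markers of cardiomyocytes were abundant in every library (15 genes, summed level 44000 to 47300 CPM in cKO and 44200 to 48800 CPM in controls).

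The formins differed widely in their level. Per transcript length (TPM, the transcript abundance unit of the second table), Fhod3 was highest in control ventricles at 61.3 ± 4.13 TPM, and Daam1 followed at 47.3 ± 3.15 TPM (mean ± SD, n = 4 control libraries throughout this paragraph). Fhod3 encodes the formin of cardiac sarcomeres, and Daam1 a formin that binds Dishevelled and acts in planar cell polarity. The 4 control libraries of Fhod3 (57.2 to 66.4 TPM) lay above those of Daam1 (43.0 to 50.6 TPM), and these above those of every other formin. Diaph3 (20.1 ± 0.931 TPM), Fhod1 (17.7 ± 1.54 TPM), Fmnl3 (16.7 ± 1.77 TPM), Daam2 (14.5 ± 1.09 TPM) and Diaph1 (14.1 ± 0.943 TPM) made up a middle group, in which each gene overlapped its neighbor in the order. Below a gap came Fmnl2 (4.79 ± 0.515 TPM) and Diaph2 (2.76 ± 0.459 TPM), whose ranges did not overlap each other. Fmnl1 was lowest at 0.967 ± 0.359 TPM.

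**Figure D1:**
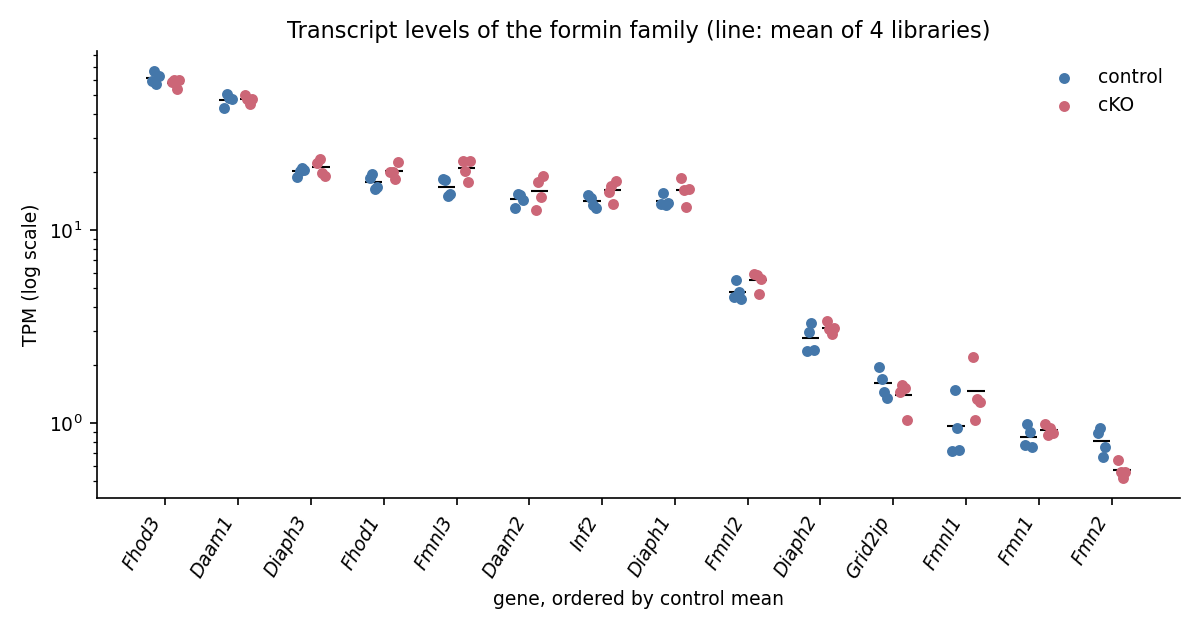
Level of each formin gene in TPM on a log axis, ordered by the control mean, with 1 point per library and a line at the mean of the 4 libraries (blue, control, and red, cKO). Fhod3 and Daam1 lie above 40 TPM in every library and Fmn2 lies under 1 TPM in every library.

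In cKO ventricles the order of the levels was nearly kept. Fhod3 (57.7 ± 2.86 TPM, mean ± SD, n = 4) and Daam1 (47.5 ± 1.98 TPM) again led without overlap. Fmnl3 (20.9 ± 2.34 TPM) stood next to Diaph3 (21.1 ± 2.04 TPM) and above Fhod1 (20.2 ± 1.74 TPM), and these neighbors overlapped. Summed over the 10 genes, control libraries held 192 to 215 TPM and cKO libraries 191 to 217 TPM, so the total formin transcript level of the groups covered the same range. Of that sum, Fhod3 made up 29.3% to 31.7% in control and 27.0% to 28.0% in cKO libraries, ranges that did not overlap. The TPM of Fhod3 itself did overlap, at 57.2 to 66.4 in control and 53.6 to 59.7 in cKO libraries. The shares of all other members overlapped, with Fmnl3 at 7.63% to 9.54% in controls against 9.32% to 10.6% in cKO. How often a share of such a sum separates by chance was not measured. These shares are linked, since a rise of one lowers the others.

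No formin passed the threshold between cKO and control ventricles. Differences were tested on the counts with edgeR's quasi-likelihood test over 26820 genes and called where p after Benjamini-Hochberg adjustment did not exceed 0.05. By this test 0 of the 10 formins were called, where 0.858% of all genes tested were called (0.515% higher and 0.343% lower in cKO, and 0.365% also past a fold change of 1.5). Of the 10, 3 (Fmnl3, Fmnl1 and Fhod1) had an unadjusted p under 0.05, all higher in cKO, against 12.8% of all genes tested (6.61% higher and 6.20% lower). That number was 5 without cKO replicate 3 or without control replicate 2, and 1 with limma on log2 TPM. It was 0 without cKO replicates 1 and 4, an alternative chosen after seeing the data. Among genes with a mean of at least 10 CPM, 19.9% had such a p and 1.65% were called, beside 2 and 0 of the 9 formins at that level. DESeq2 called 1 formin, Fmnl3, where it called 867 of the 26820 genes, 10929 of which it gave no adjusted p. Of the formins limma-voom called 0, where it called 168 genes. In none of the 10 did the 4 cKO libraries lie wholly above or wholly below the 4 control libraries, which was the case for 6.91% of all genes tested (3.14% wholly above and 3.77% wholly below) and for 11.1% of those with at least 10 CPM.

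The log2 fold change of the 10 genes, with positive values higher in cKO, ran from −0.11 to 0.67 with a median of 0.15, beside a median of −0.00085 over all genes tested and of −0.0234 over those with at least 10 CPM. In absolute value the median was 0.15 for the 10 formins, 0.176 over all genes and 0.0755 over genes with at least 10 CPM. The value was above 0 for 8 of the 10, where 49.8% of all genes and 40.8% of those with at least 10 CPM were above 0. Of these, Diaph3 turned to −0.01 without cKO replicate 2 and to −0.0048 without control replicate 1, and of the other pair Daam1 turned to 0.0070 on the TPM scale. For the 9 formins other than Fmnl1, the 95% intervals of the fold change all lay between 0.855 and 1.37, taken gene by gene and not adjusted for their number.

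**Figure D2:**
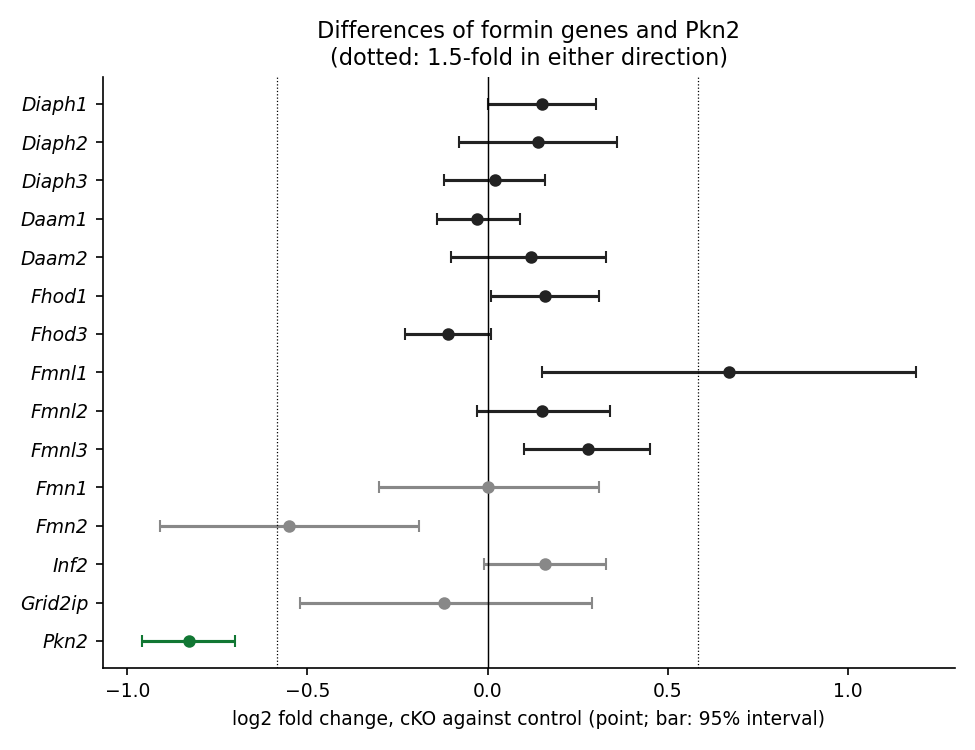
Log2 fold change of cKO against control for the 10 formins (black), 4 further formin family genes (gray) and Pkn2 (green), as points with 95% intervals from edgeR; dotted lines mark 1.5-fold in either direction. The point of Pkn2 is at −0.83, and among the 10 formins only the interval of Fmnl1 (0.15 to 1.19) reaches past the right dotted line.

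The FMNL genes encode formins of filopodia and lamellipodia. Fmnl3 (ENSMUSG00000023008, minus strand, chr15:99317225-99370482 of GRCm38), whose protein is known from filopodia and from endothelial cells, was at 56.5, 49.8, 45.0 and 56.2 CPM in cKO replicates 1 to 4. In control replicates 1 to 4 it was at 47.5, 44.9, 38.8 and 40.2 CPM. Of the cKO libraries 3 lay above every control library, and cKO replicate 3 lay below control replicate 1. The control mean of 42.9 ± 4.07 CPM compared with 51.9 ± 5.53 CPM in cKO (mean ± SD, n = 4 per group). On the log2 scale the difference was 0.28 (standard error 0.0821, 95% interval 0.10 to 0.45). With an unadjusted p of 0.00405 and an adjusted p of 0.13 by edgeR's quasi-likelihood test, Fmnl3 ranked 834 of the 26820 genes. A two-sided exact permutation test over all groupings of 4 against 4 libraries gave p = 0.0571, where the smallest possible is 0.0286.

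The call on Fmnl3 depended on the processing. Its adjusted p was 0.0387 with DESeq2, 0.0239 with edgeR and no filter on low counts, and 0.0324 with edgeR without cKO replicate 3. It was 0.159 with limma-voom and from 0.206 to 0.416 with limma on log2 TPM. The 2 cKO libraries with the highest Fmnl3, replicates 1 and 4, were those with the highest summed endothelial and endocardial markers. The same libraries were also the highest in cKO for Diaph1, Diaph2, Daam1 and Fhod1, so the match was not particular to Fmnl3. Of these, Daam1 differed by −0.03 on the log2 scale. Without cKO replicates 1 and 4, an alternative chosen after seeing the data, the log2 fold change of Fmnl3 was 0.15 (adjusted p = 0.722 by edgeR). As they were the 2 cKO libraries with the highest Fmnl3, leaving them out had to lower the difference. The part of endothelial cells in the difference of Fmnl3 was not tested, and in bulk tissue more cells of a type cannot be told apart from more RNA per cell.

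Fmnl1 (ENSMUSG00000055805, plus strand, chr11:103171107-103198901 of GRCm38) encodes a formin of white blood cells, macrophages among them. It was the least abundant formin and had the widest spread. It was at 4.50, 2.2, 2.94 and 2.66 CPM in cKO replicates 1 to 4 and at 1.52, 2.82, 1.85 and 1.56 CPM in control replicates 1 to 4. Control replicate 2 lay above cKO replicates 2 and 4, so the groups overlapped. Fmnl1 differed by 0.67 on the log2 scale (standard error 0.243, 95% interval 0.15 to 1.19, adjusted p = 0.235 by edgeR), and the exact permutation p was 0.0857. Without cKO replicate 1 the log2 fold change was 0.43, and without control replicate 2 it was 0.91.

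Macrophage markers were measured beside Fmnl1. The 14 genes of the macrophage list were all above the control level (median log2 fold change 1.91), and 2 of them, C1qb and C1qc, passed the threshold by edgeR (7 by DESeq2 and 0 by limma-voom). Their summed level was 54.4 to 87.3 CPM in cKO and 35.6 to 45.7 CPM in controls, most of it from Lyz2, and of the 14 only Tyrobp was at 0 in any library, among the controls. The library highest in Fmnl1 among the 4 cKO libraries, replicate 1, was also highest in the list. Among the controls, the summed list was at 45.7 CPM in replicate 2, which had the highest Fmnl1, and at 45.3 CPM in replicate 1, which had the lowest. With each of the 14 genes weighted alike, as the mean log2 level less the control average, control replicates 1 to 4 were at −0.09, 0.77, −0.24 and −0.43. On that scale cKO replicates 1 to 4 were at 2.59, 0.98, 0.92 and 1.8. The part of macrophages in the difference of Fmnl1 was not tested.

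Fmnl2 (ENSMUSG00000036053, plus strand, chr2:52857860-53133804 of GRCm38), a Cdc42-bound formin of the leading edge, was at 17.5, 17.4, 14.5 and 17.1 CPM in cKO and at 14.3, 16.4, 14.9 and 14.3 CPM in control replicates 1 to 4. Of the cKO libraries 3 were above every control library, and cKO replicate 3 was inside the control range. Fmnl2 differed by 0.15 on the log2 scale (standard error 0.0869, 95% interval −0.03 to 0.34, adjusted p = 0.518 by edgeR).

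**Figure D3:**
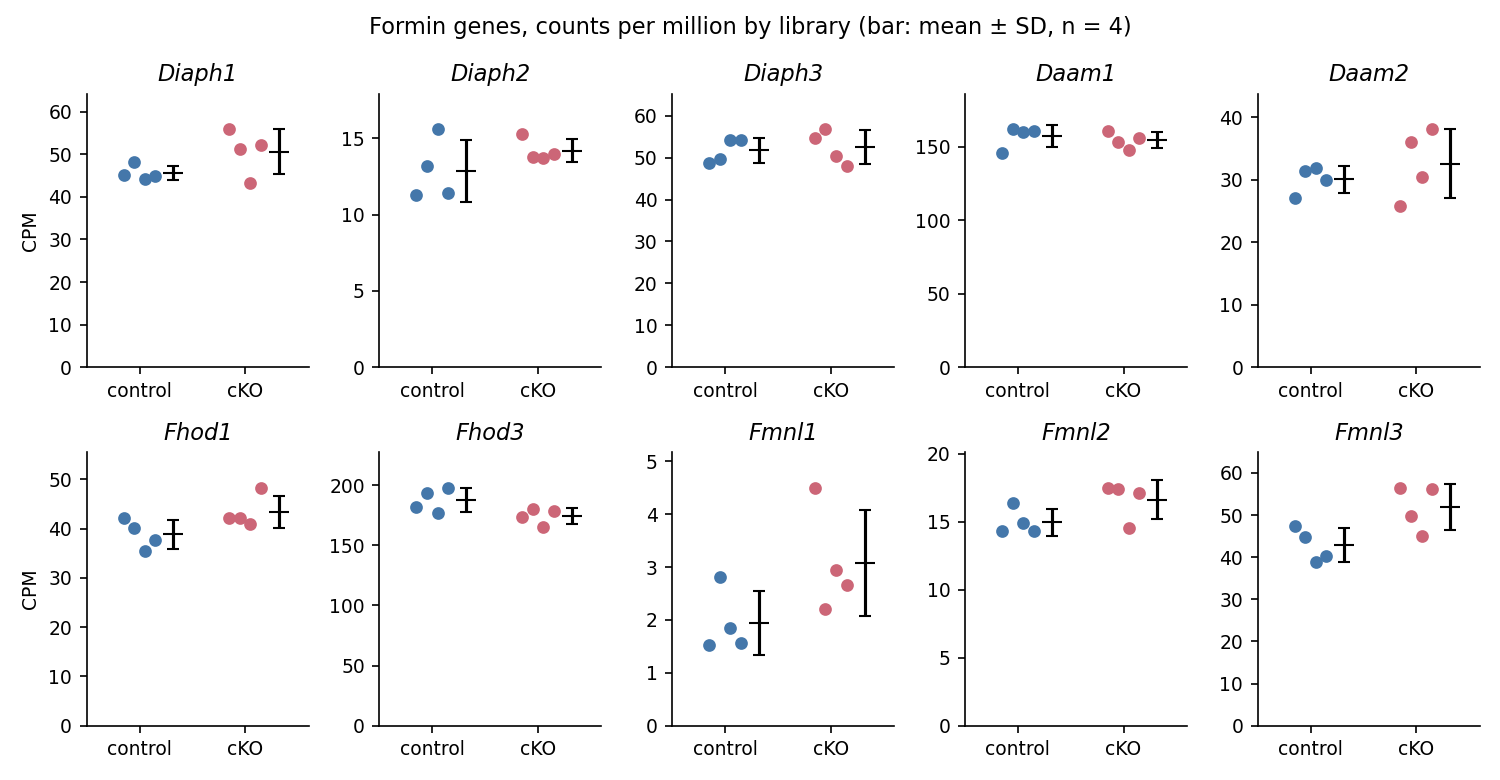
CPM of each of the 10 formins in every library, with control libraries in blue, cKO libraries in red, replicates 1 to 4 from left to right within a group, and the mean ± SD of each group (n = 4) beside them; every axis starts at 0. In each of the 10 panels the libraries of the groups overlap, and Fmnl1 spreads most relative to its mean.

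The FHOD genes had log2 fold changes of opposite sign, and neither was called. Fhod3 (ENSMUSG00000034295) was at 174, 180, 165 and 179 CPM in cKO replicates 1 to 4 and at 182, 194, 177 and 198 CPM in control replicates 1 to 4. Every cKO library was below the control mean of 188 ± 10.2 CPM (SD, n = 4), and 2 of the 4 were below every control library. Fhod3 differed by −0.11 on the log2 scale (standard error 0.0566, 95% interval −0.23 to 0.01, adjusted p = 0.466 by edgeR), which amounts to 92.9% of the control level, and the exact permutation p was 0.0857. With any 1 library removed it stayed between −0.13 and −0.08. The interval reached down to 0.855-fold. Cardiomyocyte markers, in whose cells Fhod3 is best known, had a median log2 fold change of −0.05, with 4 of 15 genes above 0 and 0 called by edgeR (2 higher and 2 lower at an unadjusted p under 0.05, and 1 by DESeq2).

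Fhod1 (ENSMUSG00000014778, minus strand, chr8:105329163-105347953 of GRCm38), which bundles actin in stress fibers and is a substrate of ROCK, was at 42.2, 42.1, 40.9 and 48.3 CPM in cKO and at 42.1, 40.1, 35.5 and 37.6 CPM in control replicates 1 to 4. Every cKO library lay above the control mean, but only cKO replicate 4 stood clear of the control range by more than 1 CPM. Fhod1 differed by 0.16 on the log2 scale (standard error 0.071, 95% interval 0.01 to 0.31, unadjusted p = 0.0388, adjusted p = 0.357 by edgeR). The span of Fhod1 shares 6057 bases with Tmem208 on the opposite strand, measured at 25.3 CPM, and that of Fhod3 shares 6279 bases with Tpgs2 on the opposite strand, measured at 36.1 CPM. The strand setting of the counting is not given in the sources used here, so reads from the shared stretches cannot be assigned with certainty. No other span among the 10 formins held a gene above 1 CPM.

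Of the DIAPH genes, which encode the diaphanous formins, none was called. Diaph1 (ENSMUSG00000024456) was at 55.9, 51.2, 43.3 and 52.2 CPM in cKO and at 45.1, 48.1, 44.3 and 45.0 CPM in control replicates 1 to 4. Of the cKO libraries 3 lay above every control library, while cKO replicate 3 lay below every control. The SD was 5.31 CPM among cKO and 1.70 CPM among control libraries. Diaph1 differed by 0.15 on the log2 scale (standard error 0.0719, adjusted p = 0.396 by edgeR). The value was 0.22 without cKO replicate 3, its lowest library (adjusted p = 0.0707 by edgeR). Without cKO replicates 1 and 4, its highest cKO libraries and a choice made after seeing the data, it was 0.06 (adjusted p = 0.941 by edgeR).

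Diaph2 (ENSMUSG00000034480, plus strand, chrX:129749742-130465834 of GRCm38) was at 13.7 to 15.3 CPM in cKO, within the control range of 11.3 to 15.6 CPM. On the log2 scale it differed by 0.14 (standard error 0.104, adjusted p = 0.654 by edgeR). It was 0.25 without control replicate 3 (adjusted p = 0.352) and 0.09 without control replicate 1 or 4. Diaph3 (ENSMUSG00000022021, minus strand, chr14:86655367-87141224 of GRCm38), which acts in cell division, was at 54.8, 56.8, 50.3 and 47.9 CPM in cKO and at 48.7, 49.8, 54.3 and 54.2 CPM in control replicates 1 to 4. The cKO libraries reached both below and above the control range, and the groups differed by 0.02 on the log2 scale (standard error 0.066, 95% interval −0.12 to 0.16, adjusted p = 0.95 by edgeR). In a list of 10 genes of cycling cells, 2 were above the control level, the median log2 fold change was −0.10 and 0 passed by edgeR (2 at an unadjusted p under 0.05, both lower, and 1 called by DESeq2).

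For the DAAM genes, formins of planar cell polarity, the difference was within the spread between replicates. Daam1 (ENSMUSG00000034574, plus strand, chr12:71831078-71992333 of GRCm38) was at 161, 153, 148 and 156 CPM in cKO and at 146, 162, 160 and 161 CPM in control replicates 1 to 4, so that every cKO library fell within the control range. Daam1 differed by −0.03 on the log2 scale (standard error 0.055, 95% interval −0.14 to 0.09, adjusted p = 0.909 by edgeR). Daam2 (ENSMUSG00000040260, minus strand, chr17:49458427-49564343 of GRCm38) was at 25.8, 36.1, 30.4 and 38.1 CPM in cKO and at 27.1, 31.4, 31.9 and 30.0 CPM in control replicates 1 to 4. The cKO libraries took in both the lowest and the highest value, with an SD of 5.60 CPM among cKO and 2.19 CPM among control libraries. Daam2 differed by 0.12 on the log2 scale (standard error 0.101, 95% interval −0.10 to 0.33, adjusted p = 0.732 by edgeR). It was 0.22 without cKO replicate 1 (adjusted p = 0.402), 0.07 without cKO replicate 2 or control replicate 1, and 0.04 without cKO replicate 4.

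**Figure D4:**
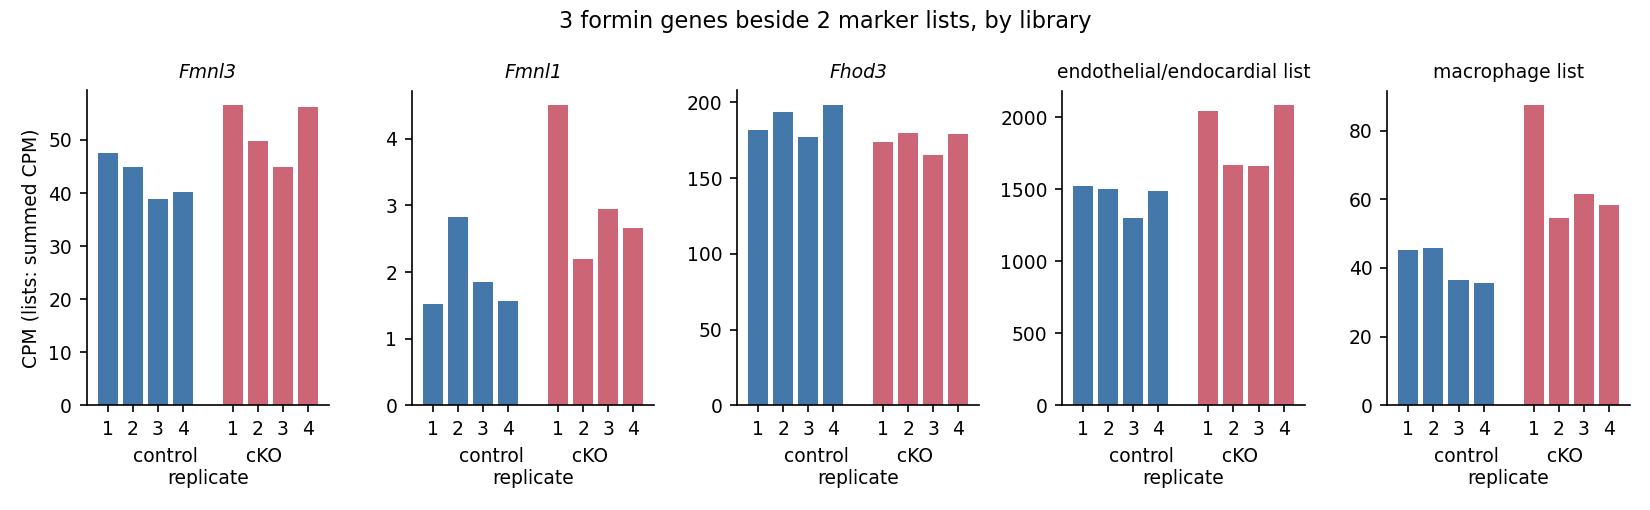
CPM of Fmnl3, Fmnl1 and Fhod3 in each of the 8 libraries, beside the summed CPM of the endothelial and endocardial list (15 genes) and the macrophage list (14 genes); bars are single libraries, in blue for control and red for cKO. Both marker sums are higher in each cKO library than in any control library, and cKO replicates 1 and 4 lead for Fmnl3 (56.5 and 56.2 CPM) as for the endothelial and endocardial list (2040 and 2080 CPM). These replicates are also the highest in cKO for Diaph1, Diaph2, Daam1 and Fhod1, which are not drawn here.

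The 4 other genes of the formin family were measured in the same fit, and 0 of them passed by edgeR. DESeq2 called 1, Fmn2, where it called 867 of all 26820 genes. Fmn2, known from the spindle of the oocyte, was at 2.36, 1.95, 1.87 and 1.98 CPM in cKO and at 3.23, 3.36, 2.54 and 2.82 CPM in control replicates 1 to 4. Its 4 cKO libraries all lay below its 4 control libraries (two-sided exact permutation p = 0.0286, the smallest possible), which was the case for 3.77% of all genes tested. Fmn2 differed by −0.55 on the log2 scale (standard error 0.168, adjusted p = 0.14 by edgeR and 0.0411 by DESeq2) at 90 to 175 counts per library. Inf2, a formin that also severs filaments, had a log2 fold change of 0.16 (adjusted p = 0.415 by edgeR). Fmn1 and Grid2ip were at 3.77 and 2.63 CPM in cKO and at 3.76 and 2.85 CPM in controls.

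Of 12 partners and upstream regulators of formins (Dishevelled genes and proteins that bind DIAPH or FMNL formins among them), 0 passed by edgeR. Of these, 4 were higher at an unadjusted p under 0.05 and 0 lower, DESeq2 called 2 and limma-voom 0, and the median log2 fold change was 0.07. The scaffold Iqgap1 had the lowest p of the list, with a mean of 119 CPM in control and 150 CPM in cKO libraries (log2 fold change 0.34, adjusted p = 0.0735 by edgeR), and was singled out after its value was seen. Profilins and factors of the filament's growing end had a median log2 fold change of −0.08, with 2 of 10 tested genes above 0 and 0 calls by edgeR (1 at an unadjusted p under 0.05, and 1 by DESeq2). Pfn1, the main profilin, averaged 683 CPM in control and 645 CPM in cKO libraries (adjusted p = 0.672 by edgeR).

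The genes most like each formin over the 8 libraries were sought among 14302 genes with a mean of at least 1 CPM, by Pearson's correlation of log2 CPM after the group means were taken off. With so few libraries and so many genes, high values arise for any gene, and they are given as a description. For Fmnl3 they were Gm28042, Gramd1a and Mroh2a (r from 0.973 to 0.988, n = 8 libraries). For Fhod3 they were Zc3h13, Ankrd27 and Baz1b (0.978 to 0.984), for Diaph1 Dst, Trpc6 and Trio (0.982 to 0.983), and for Fmnl1 Plcg2, Tmem44 and Clasp2 (0.952 to 0.959). No formin was among the 3 genes most like another formin.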

How the data were processed

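Poly(A) RNA from 4 cKO and 4 control samples of E10.5 ventricular tissue was sequenced, and groups were taken from the sample titles. One deposited table holds raw counts by gene symbol, not normalized. A second deposited table holds TPM values that the authors computed, also by library. The submitters' processing notes name FastQC, Trim Galore 0.6.7, HISAT2 2.2.1, StringTie 2.2.1, featureCounts and DESeq2. The methods name GRCm39, but of 37782 genes compared, 85.8% lay within 1000 bases of where GRCm38 places them, against 3.26% for GRCm39, and positions are therefore given as GRCm38.

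Counts were tested with edgeR 4.0.16 in R 4.3.3 (TMM, quasi-likelihood, design with condition, genes with 8 or more counts over the libraries, Benjamini-Hochberg over 26820 genes), and the 10 formins were read from that fit. Standard errors were computed from the coefficient and the F statistic of the same fit, and 95% intervals from these with its degrees of freedom. DESeq2 1.42.0 and limma 3.58.1 (voom, and log2 TPM with pseudocounts of 1 and 0.1) were alternatives, as were DESeq2 size factors, filterByExpr, no filter, a TPM filter of 1, the replicate number as a block and each library left out. The fit was tested on simulated counts. Each library is taken as 1 biological replicate, as the series text has it.

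Members and lists were chosen with earlier results of these data known. Some lists and genes are not reported here. Named are the 10 formins, the 4 other family genes, Pkn2, genes of the lists past the threshold, the most abundant genes of a list, genes whose span overlaps a formin, and the 3 genes most like a formin. Iqgap1, Actb, Actg1, Acta1, Srf and Tyrobp were named after their values were seen. No 2 libraries of a group were as close as copies would be (chi-square per degree of freedom 11.9 to 39.4). Equal replicate numbers were not read as pairs, since correlations of same-numbered libraries were −0.301 to 0.045 over 9858 genes.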

Additional observations from a re-analysis of the deposited data

Results flagged for a closer look

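For each of the 10 formins, the 4 other family genes and Pkn2, the library farthest from the rest of its group was examined. In 2 of 30 groups its gap was more than 0.829 of the group's range, a share that chance gives in about 1 of 20 groups. Daam1 was at 146 CPM in control replicate 1, where the other control libraries lay between 160 and 162 CPM (gap 0.888 of the range). Fmnl2 was at 14.5 CPM in cKO replicate 3, where the other cKO libraries lay between 17.1 and 17.5 CPM (gap 0.864 of the range). Without these libraries the log2 fold change of Daam1 was −0.06 and that of Fmnl2 0.21.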

How the results depend on the processing

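The count of formins past the threshold was 0 in 15 of the 18 alternatives and 1 (Fmnl3) with DESeq2, with no filter and without cKO replicate 3, so that leaving out 1 library gave 0 to 1. Over all genes, 230 passed the threshold and 98 also a fold change of 1.5. These counts were 867 and 230 with DESeq2, 878 and 366 with no filter, 1 and 1 with limma on log2(TPM + 1), 7 and 6 with log2(TPM + 0.1), 22 and 10 with log2(TPM + 1) and a mean TPM of at least 1, and 103 and 44 with cKO replicates 1 and 4 both left out. With limma-voom 62 passed both. Leaving out 1 library gave 67 to 744 (without control replicate 1 and without cKO replicate 3) and 31 to 296. With the replicate number as a block, 380 and 168 passed and 0 formins. The log2 fold change turned in sign for Diaph3, Daam1, Fmn1 and Grid2ip. Diaph3 was −0.01 without cKO replicate 2 and −0.0048 without control replicate 1 (−0.01 to 0.07 with 1 library left out). Daam1 was 0.0070 with log2(TPM + 1), with or without the TPM filter, and 0.0072 with log2(TPM + 0.1). Fmn1 was −0.0043 with limma-voom, −0.02 without cKO replicate 1, −0.06 without cKO replicate 3, −0.03 without control replicate 1 and −0.0060 without control replicate 4 (−0.06 to 0.08). Grid2ip was 0.01 without cKO replicate 4 (−0.20 to 0.01) and 0.11 without cKO replicates 1 and 4. The cause was not tested. Counting error was largest for Fmnl1, Fmn1, Fmn2 and Grid2ip. For Fmnl1 it was at most 11.3%, under the spread between libraries (SD of 32.5% of the mean in cKO and 31.3% in controls).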

Other observations

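Actin itself and further genes of filament assembly were measured in the same fit. Of 6 actin genes, 0 passed by edgeR, 3 were higher at an unadjusted p under 0.05 and DESeq2 called 3. Actb and Actg1, the cytoplasmic actins, were at 1330 and 590 CPM in cKO and at 1160 and 522 CPM in controls, with every cKO library above every control library for both (log2 fold changes 0.20 and 0.18, adjusted p = 0.13 and 0.177 by edgeR's quasi-likelihood test). For the other actin genes the groups overlapped. Among all genes with at least 10 CPM, 11.1% did not overlap between groups. Actc1 and Acta2, the most abundant of the list, had log2 fold changes of −0.05 and −0.16 (adjusted p = 0.812 and 0.431). Muscle actins did not all go down, since Acta1 had the largest rise and the lowest p of the 6 genes. Its log2 fold change was 0.25 (unadjusted p = 0.00151, adjusted p = 0.0887 by edgeR). Acta1 ranged from 631 to 692 CPM over the cKO libraries and from 530 to 638 CPM over the control libraries. A further list held 9 genes of other nucleators and their relatives (Spire, Cobl, Lmod, Jmy and Whamm genes), without the Arp2/3 complex. Of these 9, 0 passed by edgeR, with 2 higher and 1 lower at an unadjusted p under 0.05, and DESeq2 called 0. Lmod2 and Jmy, the most abundant, were at 80.5 and 60 CPM in cKO and at 70.8 and 62.2 CPM in controls.

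Free actin consumed by formins is known to release the cofactors of SRF, so a list of 18 MRTF and SRF genes was included. Of these, 2 passed by edgeR, both higher in cKO, and the median log2 fold change was 0.05. They were Flna, which encodes the actin crosslinker filamin A (946 CPM in cKO and 696 CPM in controls, log2 fold change 0.44, adjusted p = 0.0264), and Egr1, an immediate early transcription factor (23.8 and 15.9 CPM, log2 fold change 0.58, adjusted p = 0.0249). Srf itself was lower in each cKO library than in any control library without passing (108 and 122 CPM, log2 fold change −0.18, adjusted p = 0.158). Groups did not overlap for 11.1% of all genes with at least 10 CPM. At an unadjusted p under 0.05 by edgeR, 8 of the 18 were higher and 3 lower, where 19.9% of all genes with at least 10 CPM had such a p. Of the 18, DESeq2 called 3 and limma-voom 2.

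Markers of further cell types were also summed by library. Megakaryocyte and platelet markers were at 39.5 to 132 CPM in cKO and 24.7 to 63.1 CPM in controls, erythroid markers at 1420 to 4930 and 1550 to 4770 CPM, cushion mesenchyme markers at 776 to 942 and 771 to 956 CPM, and epicardial markers at 344 to 522 and 438 to 464 CPM. Hepatic markers were at 13.5 to 19.7 and 14.8 to 43.3 CPM, the highest value being control replicate 1 alone and the other control libraries at 14.8 to 17.8 CPM, with Alb under 8 counts in total, and neural markers at 21.1 to 36.3 and 17.3 to 22.3 CPM. By edgeR 0 genes of these lists passed. At an unadjusted p under 0.05, 7 megakaryocyte, 1 erythroid and 1 neural marker were higher, and 1 cushion, 2 epicardial and 6 hepatic markers were lower. DESeq2 called 0 megakaryocyte, 0 erythroid, 1 cushion, 2 epicardial, 1 hepatic and 1 neural marker.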
